A study of Mus musculus with 9 samples.

Results

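The genes described here are 10 members of the ATF4 target program of the integrated stress response, chosen by name in the deposited tables of brown adipose tissue RNA: the transcription factors Atf5, Cebpg, Atf3, Ddit3 and Nupr1, the signalling regulators Trib3, Ddit4 and Sesn2, and the amino acid and glutathione enzymes Asns and Chac1. All 10 were among the 16006 genes listed in all 3 tables, each with a single row. Mice on the C57Bl/6J background were used, wild type (WT) or lacking GCN2 in the whole body (Gcn2-/-, labelled GCN2 KO), and both were adult. WT Cold and GCN2 KO Cold mice spent 8 h at 4 °C, WT RT mice stayed at room temperature (23 °C), and each group had 3 biological replicates. No room temperature group of GCN2 KO mice was analysed here, so an effect of genotype before cold cannot be told apart from one that arose during it.

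Phosphorylation of the alpha subunit of eIF2 by any of the kinases GCN2, PERK, PKR or HRI lowers general translation and favors translation of the ATF4 mRNA. The ATF4 protein then dimerizes with C/EBP family and other leucine zipper proteins and activates genes for amino acid synthesis and uptake, tRNA charging, redox balance and feedback control of the stress response. In brown adipose tissue the program is known for its link to FGF21 and GDF15, hormones that the tissue can release when its mitochondria are stressed. GCN2 itself responds to amino acid shortage.

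ATF4 dimers bind a composite of a C/EBP half-site and an ATF half-site. The consensus TGATGNAA was searched on both strands of the RefSeq promoter windows (GRCm38.p6), which run from 250 bases before a start site to 50 bases after it, and all 10 genes had a window. It was present in 5 of 10 members, against 4.51% of the 27025 genes of the table. Before the start site alone it was present in 4 of 10 members and 3.91% of genes. These are the members in which the element was found, shown 5′ to 3′ on the strand of the gene, with the matching letters in capitals, so that the shared core can be compared.
Atf3, chr1:191183420-191183459, minus strand, 110 bases before the start site: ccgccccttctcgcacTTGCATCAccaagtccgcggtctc
Nupr1, chr7:126625557-126625596, minus strand, 110 bases before the start site: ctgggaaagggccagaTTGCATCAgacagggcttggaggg
Chac1, chr2:119351033-119351072, plus strand, 193 bases before the start site: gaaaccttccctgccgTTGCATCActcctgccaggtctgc
Asns, chr6:7693210-7693248, minus strand, 23 bases before the start site: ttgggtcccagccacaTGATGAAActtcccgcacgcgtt
Trib3, chr2:152344028-152344057, minus strand, 14 bases after the start site: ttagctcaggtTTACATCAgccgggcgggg

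Atf3, Nupr1 and Chac1 carried the same 8 letters, TTGCATCA, which is the element read on the opposite strand. Asns carried it in the forward orientation and Trib3 in the reverse. The cAMP response element TGACGTCA and the palindromic C/EBP site TTGCGCAA were in none of the 10 windows, against 2.03% and 0.21% of genes. The windows of Atf5, Cebpg, Ddit3, Ddit4 and Sesn2 held none of these 3 sets of letters. Of the 5 members with the composite element, 1 (Asns) had a limma adjusted p under 0.05 over all genes, termed passed, in WT Cold against WT RT, and of the 5 without it 4 did, where 13.6% of all genes rose and 14.1% fell. Asns and, among the 4, Cebpg each passed in only 1 of 6 fits that left out 1 library. A match describes the letters only, and binding was not measured in these samples.

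Levels are given as CPM, the reads recovered from the deposited values scaled to a common library total, and the letters A, B and C name the libraries of each group. The recovered reads on the listed genes ranged from 27055469 to 30766437 per library. Brown adipocyte markers were abundant throughout, with Ucp1, the uncoupling protein of thermogenesis, between 3594 and 9695 CPM. The summed CPM of 10 such markers was separate in all 3 groups, at 18770 to 20690 in WT RT, 24430 to 26090 in WT Cold and 28540 to 29280 in GCN2 KO Cold. Fabp4, at 10100 to 13540 CPM, and Ucp1 made up most of each sum. Of the 10 markers, 3 rose, 1 fell and 6 did not pass in WT Cold against WT RT, where 13.6% of all genes rose and 14.1% fell. The fall was in Plin1 (log2 fold change -0.34 ± 0.09 SE, limma adjusted p = 0.0256). None of the 10 passed in GCN2 KO Cold against WT Cold, where 0.405% of all genes did. The part of these markers in the results was not tested. Tests were made within each table with limma on log2(normalized count + 1), with p adjusted over all genes of the table. With the CPM scale the median log2 fold change of all genes moved from 0.003 to -0.08 in WT Cold against WT RT, from -0.003 to -0.12 in GCN2 KO Cold against WT Cold, and from 0.009 to -0.19 in GCN2 KO Cold against WT RT. Relative to the deposited scale, CPM levels are thus slightly low in the cold groups.

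Several features of the libraries touch these results. WT RT libraries carry codes with a prefix of their own, and the 6 cold libraries share another, so any difference in how the sets were prepared cannot be told apart from cold. Library C of each cold group stood apart in genes of the sex chromosomes: Xist was at 131 and 128 CPM in WT Cold C and GCN2 KO Cold C against 11.2 to 43.5 CPM in the other 7 libraries, and Ddx3y was at 7.02 and 10.5 CPM against 84.8 to 144 CPM. No WT RT library had such levels, although mice of both sexes were used. The targeted gene Eif2ak4, which encodes GCN2, was no lower where the label reads GCN2 KO Cold: it was at 11.9, 12.7 and 11.8 CPM there, at 6.46, 8.31 and 8.34 CPM in WT Cold and at 11.1, 12.7 and 13.0 CPM in WT RT. Between GCN2 KO Cold and WT Cold its log2 fold change was 0.78 ± 0.15 (SE, limma adjusted p = 0.0932, and DESeq2 adjusted p = 0.0028). Which exons the knockout removes was not given in the sources used here, so this transcript level does not check the genotype, GCN2 KO Cold names the label throughout, and the title of 1 of these samples names both genotypes. Summed CPM of 10 skeletal muscle markers ran from 302 to 1189 in GCN2 KO Cold against 2022 to 3363 in WT Cold and 2221 to 2722 in WT RT, and their part in the results below was not tested. Summed CPM of the leukocyte markers, of which 9 of 10 were listed in every table, ran from 317 to 532 in WT RT, 145 to 196 in WT Cold and 103 to 168 in GCN2 KO Cold. Summed CPM of 4 red blood cell markers ran from 236 to 307 in WT RT, 515 to 2054 in WT Cold and 979 to 1885 in GCN2 KO Cold, and all 4 rose in both cold groups against WT RT (median log2 fold changes of 1.69 and 2.35). Those of 4 Schwann cell markers ran from 57.3 to 76.7 in WT RT, 69.6 to 71.6 in WT Cold and 45.6 to 46.9 in GCN2 KO Cold. Summed CPM of 5 endothelial markers ran from 533 to 584 in WT RT, 615 to 770.4 in WT Cold and 511 to 610.2 in GCN2 KO Cold. The part of these 4 lists was not tested either.

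Per kilobase of exon, Atf5 was the most abundant member in every group, at 222 ± 33.3 CPM per kb in WT Cold, 149 ± 30.0 in WT RT and 209 ± 58.5 in GCN2 KO Cold (SD, n = 3). Ddit4, at 28.2 ± 9.11 CPM per kb in WT RT, Asns, at 20.9 ± 1.02, and Cebpg, at 19.5 ± 1.34, followed and lay within the spread of Ddit4. Ddit3 (11.7 ± 0.708), Nupr1 (10.3 ± 0.374), Atf3 (5.54 ± 2.24), Sesn2 (5.08 ± 0.288), Chac1 (4.69 ± 0.723) and Trib3 (3.69 ± 0.213) were lower, all in CPM per kb in WT RT. Sesn2, Chac1 and Trib3 all lay within the SD of Atf3. In WT Cold, Ddit4 was at 94.0 ± 61.9 CPM per kb and Sesn2 at 11.9 ± 3.90 CPM per kb, close to Ddit3 at 12.3 ± 0.580.

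**Figure D1:**
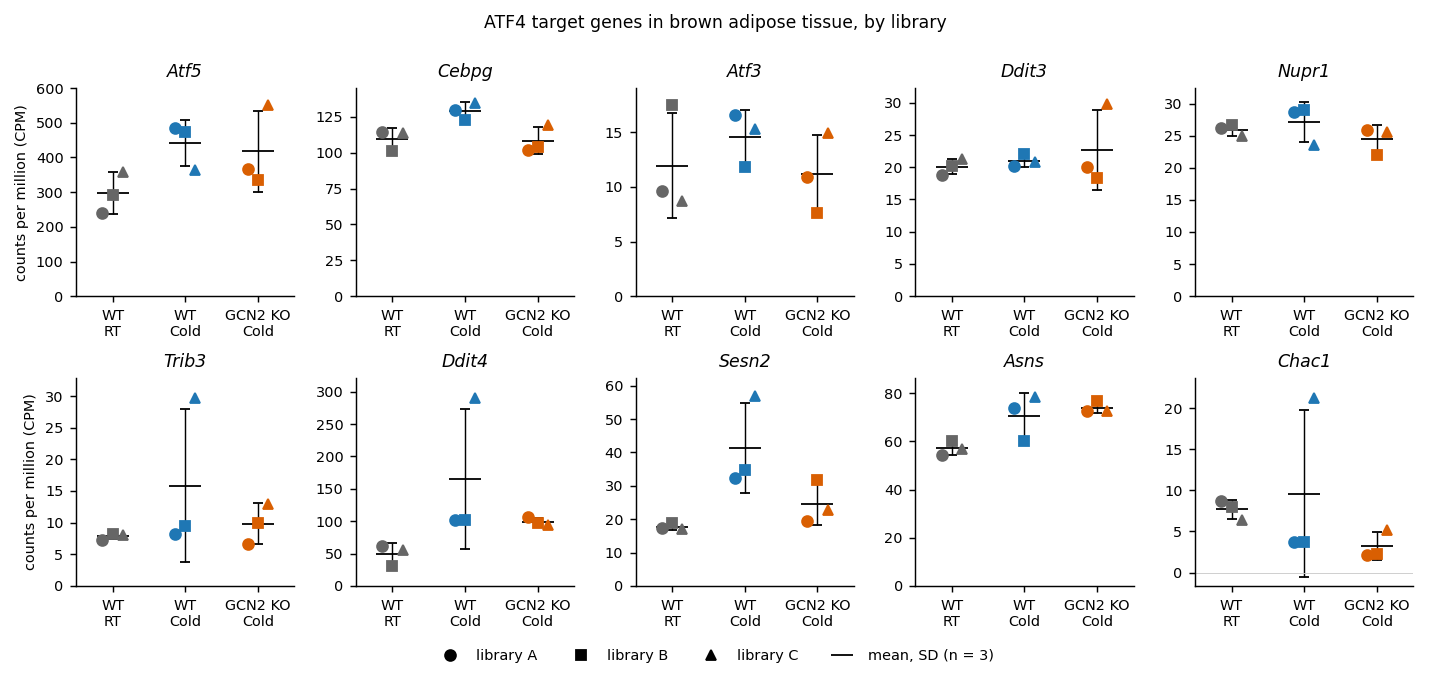
CPM levels (reads scaled to a common library total, linear axis from 0, except that the Chac1 axis runs below 0 to hold an error bar) of the 10 ATF4 target genes in 9 libraries of brown adipose tissue. Points are libraries A, B and C of each group, and horizontal bars with whiskers are the mean and SD (n = 3). Library C of WT Cold (triangle) sits far above A and B for Trib3, Ddit4, Sesn2 and Chac1, and for Nupr1 and Ddit3 the groups lie at like levels.

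To assess the effect of acute cold in WT mice, WT Cold was compared with WT RT. Atf4 mRNA itself was at 265, 243 and 284 CPM in the WT Cold libraries and 102, 159 and 110 CPM in WT RT, with no overlap, and rose by a log2 fold change of 1.20 ± 0.16 (SE, limma adjusted p = 0.00176). Of the 10 members, 5 rose (Ddit4, Sesn2, Atf5, Asns and Cebpg), none fell and 5 did not pass. Among all 16679 genes, 2268 or 13.6% rose and 14.1% fell. The same 5 members passed with DESeq2 and with edgeR. The members' median log2 fold change was 0.41, and that of all genes was 0.003. Normalized counts of the groups did not overlap for 6 members, all higher in WT Cold (the 5 that rose and Trib3), against 22.8% of all genes separated in that direction.

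Among the transcription factors, Atf5, whose own mRNA is translationally favored by eIF2 phosphorylation, was at 485, 474 and 365 CPM in WT Cold and 239, 293 and 359 CPM in WT RT. The lowest WT Cold library, C, and the highest WT RT library were nearly level, and Atf5 rose by a log2 fold change of 0.67 ± 0.17 (SE, limma adjusted p = 0.0249). Cebpg, a C/EBP family partner of ATF4, was at 129, 123 and 135 CPM in WT Cold and 115, 101 and 114 CPM in WT RT. All WT Cold libraries lay above all WT RT libraries, by a log2 fold change of 0.32 ± 0.09 (SE, limma adjusted p = 0.0372).

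The other 3 factors did not pass. Atf3, an immediate stress-induced factor, ranged from 11.9 to 16.6 CPM in WT Cold and from 8.70 to 17.5 CPM in WT RT, where library B alone was high (log2 fold change 0.43 ± 0.25 SE, limma adjusted p = 0.24). Ddit3, which encodes the pro-apoptotic factor CHOP, ranged from 20.1 to 22.1 CPM in WT Cold and from 18.9 to 21.3 CPM in WT RT. Its 95% interval ran from -0.09 to 0.40 on the log2 scale. Nupr1, a small stress-induced chromatin protein, ranged from 23.5 to 29.0 CPM in WT Cold and from 24.9 to 26.7 CPM in WT RT, with an interval from -0.08 to 0.36. For both genes a doubling lay outside the interval. Ddit3 shares 105 exon bases with a further protein-coding entry of the same name and strand and 68 with Mars on the opposite strand. Atf5 shares 82 with Nup62 and 82 with Il4i1, both on the opposite strand. Added up gene by gene, the overlaps equal 10.9% of the exon bases of Ddit3 and 8.2% of those of Atf5. A base shared with several genes is counted several times in these sums, so the share of distinct bases can be smaller. Cebpg shares 73 with the sense intronic gene Gm44836. Reads of such bases cannot be told apart, on opposite strands because the kit does not mark strand.

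Among the signalling regulators, Ddit4 (REDD1), an inhibitor of mTORC1, was at 102, 102 and 290.4 CPM in WT Cold and 61.5, 31.3 and 55.7 CPM in WT RT. The groups did not overlap, and WT Cold library C was far above A and B. Its log2 fold change of 1.69 ± 0.44 (SE), or 3.23-fold, was the largest of the members (limma adjusted p = 0.0255). Without that library the log2 fold change was 1.17 (limma adjusted p = 0.012).

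Sesn2, which encodes the leucine sensor Sestrin2 and also restrains mTORC1, was at 32.2, 34.9 and 56.9 CPM in WT Cold and 17.3, 18.8 and 16.9 CPM in WT RT. All 3 WT Cold libraries were well above WT RT, by a log2 fold change of 1.26 ± 0.21 (SE), or 2.40-fold (limma adjusted p = 0.00482). The rise was 0.99 without library C (limma adjusted p = 0.000453). Trib3, a pseudokinase that inhibits AKT and ATF4, was at 8.19, 9.49 and 29.7 CPM in WT Cold and 7.32, 8.19 and 7.98 CPM in WT RT. WT Cold libraries A and B were at the level of WT RT, and the difference did not pass (log2 fold change 0.84 ± 0.45 SE, limma adjusted p = 0.201). It was 0.24 without library C.

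Among the enzymes, Asns, asparagine synthetase, was at 73.9, 60.0 and 78.3 CPM in WT Cold and 54.4, 60.0 and 56.8 CPM in WT RT. WT Cold library B and WT RT library B were at the same CPM level, while the others were separate. Asns rose by a log2 fold change of 0.39 ± 0.12 (SE, limma adjusted p = 0.0409), or 1.31-fold.

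Chac1, which degrades glutathione, was at 3.73, 3.75 and 21.3 CPM in WT Cold and 8.67, 8.00 and 6.37 CPM in WT RT. Libraries A and B of WT Cold were below every WT RT library and library C was above them all. The log2 fold change over all 6 libraries was -0.10 ± 0.62 (SE, limma adjusted p = 0.917), and DESeq2 and edgeR, which compare mean counts, gave 0.43 and 0.43. Without library C, Chac1 was lower in WT Cold by a log2 fold change of -0.95 (limma adjusted p = 0.00507), a direction that rests on 2 libraries.

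The calls differed in how far they rested on single libraries. Sesn2 passed whichever of the 6 libraries was left out. Ddit4 did not pass without WT RT library B (log2 fold change 1.37, limma adjusted p = 0.0831) or C (1.84, limma adjusted p = 0.0516). Atf5 did not pass without WT Cold A or B or WT RT A or B, with log2 fold changes from 0.51 to 0.64 and limma adjusted p from 0.0689 to 0.0864. Asns passed only without WT Cold B, and otherwise its log2 fold change ran from 0.29 to 0.42 with limma adjusted p from 0.0632 to 0.122. Cebpg passed only without WT RT C, and otherwise ran from 0.24 to 0.36 with limma adjusted p from 0.0625 to 0.104. On the CPM scale Asns (0.30, limma adjusted p = 0.0798) and Cebpg (0.23, limma adjusted p = 0.0628) did not pass, and with all groups in the fit Cebpg (0.23, limma adjusted p = 0.0635) and Atf5 (0.58, limma adjusted p = 0.0575) did not. Atf3, which did not pass over all libraries, rose without WT RT B (0.72, limma adjusted p = 0.0331). The number of members that passed was 2, 3 and 4 without WT Cold A, B and C, and 2, 2 and 3 without WT RT A, B and C. The 4 without WT Cold C were Atf5, Ddit4 and Sesn2, higher, and Chac1, lower.

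**Figure D2:**
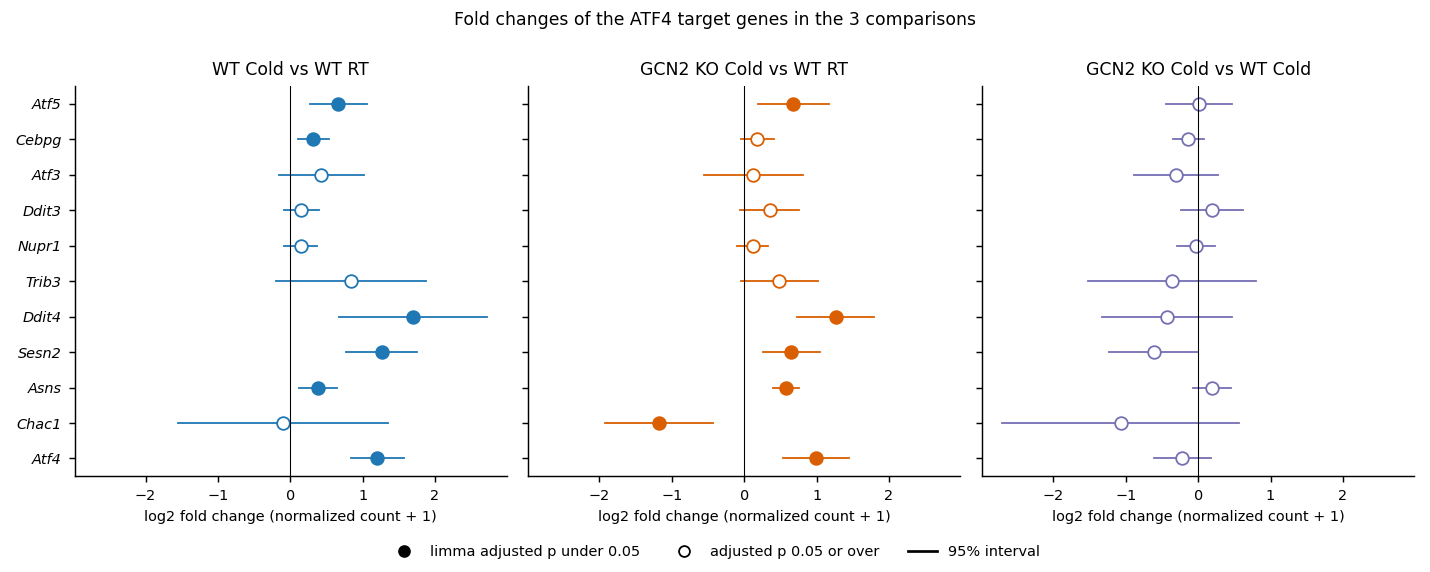
Log2 fold changes (horizontal axis, normalized count + 1) of the 10 ATF4 target genes and Atf4 in the 3 comparisons. Points are limma estimates, lines their 95% intervals, and filled points have an adjusted p under 0.05. In WT Cold vs WT RT 5 members passed, all higher, in GCN2 KO Cold vs WT RT 4 passed higher and Chac1 lower, and in GCN2 KO Cold vs WT Cold none passed.

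The spread between cold WT mice differed by member. The ratio of WT Cold library C to the mean of A and B was 5.68 for Chac1, 3.36 for Trib3, 2.84 for Ddit4 and 1.70 for Sesn2. It lay between 0.761 and 1.17 for the remaining 6 members and was 1.12 for Atf4. A ratio of at least 2 was thus found in 3 of 10 members, against 3.70% of the 14043 genes with a mean of at least 1 CPM. Among 38 other ATF4 targets, 2 reached it, a share near the 3.70% of genes. Fgf21 was at 1.28, 1.11 and 8.55 CPM in WT Cold, a ratio of 7.15, and Herpud1 had a ratio of 2.2. In GCN2 KO Cold, library C stood at 2.34 times the mean of A and B for Chac1, the only member to reach 2, against 0.449% of genes, and Fgf21 was at 0.651, 1.29 and 5.55 CPM. In WT RT no member reached 2, and 0.171% of genes did. These libraries are the ones with high Xist and low Ddx3y, and 1 library a group carries each value, so mouse, sex and library cannot be told apart.

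**Figure D3:**
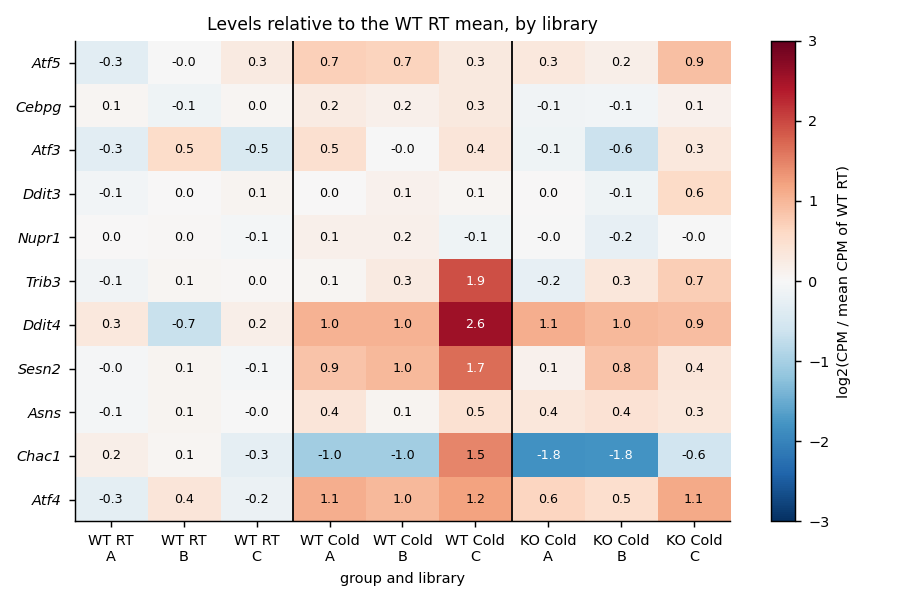
Log2 ratio of the CPM of each library to the mean CPM of WT RT, for the 10 ATF4 target genes and Atf4 (rows) in 9 libraries (columns), with red above and blue below the WT RT mean. Atf4 is red in all 6 cold libraries. The strongest red is Ddit4 in WT Cold C, and Chac1 is blue in every cold library but WT Cold C.

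To see the response of the libraries labelled GCN2 KO Cold, they were compared with WT RT, a comparison that shares its WT RT libraries with the one above and differs in genotype as well as temperature. Atf4 was at 192, 174 and 273 CPM in GCN2 KO Cold, above every WT RT library, and rose by a log2 fold change of 0.99 ± 0.20 (SE, limma adjusted p = 0.00632). Of the 10 members, 4 rose (Ddit4, Asns, Sesn2 and Atf5), 1 fell (Chac1) and 5 did not pass. Among all 16560 genes, 16.4% rose and 17.8% fell, and the same 5 members passed with DESeq2 and with edgeR. Normalized counts were separate from WT RT for the 4 members that rose, against 23.7% of genes separated upward, and for Chac1, against 25.5% separated downward. The members' median log2 fold change was 0.41, and that of all genes was 0.009.

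Ddit4 was at 106, 97.5 and 94.3 CPM in GCN2 KO Cold, a narrow range above all WT RT libraries, and rose by a log2 fold change of 1.26 ± 0.23 (SE, limma adjusted p = 0.00441). Asns, at 72.8, 76.7 and 72.5 CPM, was likewise tight and separate from WT RT, with a log2 fold change of 0.58 ± 0.08 (SE, limma adjusted p = 0.00111). Sesn2 was at 19.5, 31.8 and 22.6 CPM, with library A just above the highest WT RT library, and its log2 fold change was 0.65 ± 0.17 (SE, limma adjusted p = 0.0198). On the CPM scale Sesn2 did not pass (0.45, limma adjusted p = 0.0718).

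Atf5 was at 367, 334 and 550.4 CPM in GCN2 KO Cold, with library C highest. Its log2 fold change of 0.68 ± 0.22 (SE, limma adjusted p = 0.0404) was 0.46 without library C and did not pass (limma adjusted p = 0.0992). It did not pass on the CPM scale either (0.48, limma adjusted p = 0.101), nor with all groups in the fit (0.48, limma adjusted p = 0.0918). Normalized counts of Atf5 were all above WT RT, but in CPM library B was below the highest WT RT library. Chac1 was at 2.17, 2.23 and 5.14 CPM, below all WT RT libraries, and fell by 1.17 ± 0.33 on the log2 scale (SE, limma adjusted p = 0.0245). Without library C it fell by 1.58 (limma adjusted p = 0.00177). Chac1 lies on chromosome 2 (GRCm38, 119351229 to 119354381), 0.876 Mb from Eif2ak4 (118388618 to 118475234), and Trib3 lies 33.9 Mb from it. Whether the chromosomal neighborhood of the targeted gene has a part in the Chac1 level was not tested.

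The remaining 5 members did not pass in GCN2 KO Cold against WT RT. Trib3 was at 6.66, 9.88 and 13.0 CPM (log2 fold change 0.48 ± 0.23 SE, limma adjusted p = 0.146). Ddit3 was at 20.1, 18.3 and 29.8 CPM, with library C alone above WT RT (0.35 ± 0.18 SE, limma adjusted p = 0.17). Cebpg, Atf3 and Nupr1 had log2 fold changes of 0.18, 0.12 and 0.12, and all 3 turned negative on the CPM scale, at -0.02, -0.08 and -0.09.

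In this comparison Ddit4 and Asns passed whichever library was left out. Sesn2 did not pass without WT RT A (log2 fold change 0.63, limma adjusted p = 0.0643) or C (0.65, limma adjusted p = 0.0541). Atf5 did not pass without GCN2 KO Cold C, as given above, or without WT RT A (0.52, limma adjusted p = 0.132) or B (0.66, limma adjusted p = 0.101). Chac1 did not pass without GCN2 KO Cold A or B or WT RT A or B, where it lay between -1.16 and -0.95 with limma adjusted p from 0.0606 to 0.0824. With all groups in the fit neither Chac1 (-1.37, limma adjusted p = 0.103) nor Sesn2 (0.45, limma adjusted p = 0.144) passed, and without the mean-variance trend neither did (limma adjusted p = 0.0565 and 0.0541). Trib3 rose without GCN2 KO Cold A (0.74, limma adjusted p = 0.0139). The number of members that passed was 5, 4 and 4 without GCN2 KO Cold A, B and C, and 2, 3 and 4 without WT RT A, B and C.

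To compare the genotype labels in the cold, libraries with the GCN2 KO Cold label were set against those of WT Cold. Without a room temperature GCN2 KO group, this contrast cannot tell an effect on the cold response from a difference present before cold. None of the 10 members passed with limma, DESeq2 or edgeR, and none had an unadjusted p under 0.05 with limma. Of all 16312 genes, 66 or 0.405% passed with limma and 526 or 3.22% with DESeq2, and 15.3% had an unadjusted p under 0.05. The members' median log2 fold change was -0.22, and that of all genes was -0.003. Every member overlapped between the groups in normalized counts, while 22.0% of all genes did not.

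The largest differences were in Chac1, with a log2 fold change of -1.07 ± 0.70 (SE, limma adjusted p = 0.531), and Sesn2, with -0.61 ± 0.26 (SE, limma adjusted p = 0.329). Sesn2 had the lowest unadjusted p of the members (0.0509 with limma), and its 95% interval ran from -1.23 to 0.003. In CPM, Sesn2 (31.8 at most against 32.2 at least) and Cebpg (119 at most against 123 at least) were separate between the groups, a gap that closed in normalized counts. Ddit4 (-0.43 ± 0.38 SE) and Trib3 (-0.36 ± 0.50 SE) turned positive, at 0.09 and 0.24, when WT Cold library C was left out. In that fit Chac1 moved to -0.22 and Sesn2 to -0.34.

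The intervals bound what these libraries could show. The 95% interval of the log2 difference ran from -0.07 to 0.45 for Asns, from -0.35 to 0.08 for Cebpg, from -0.29 to 0.24 for Nupr1, from -0.44 to 0.47 for Atf5 and from -0.23 to 0.63 for Ddit3. A change of 2-fold in either direction lay outside all 5. It ran from -0.89 to 0.28 for Atf3. For Chac1 (-2.71 to 0.57), Trib3 (-1.52 to 0.80) and Ddit4 (-1.33 to 0.47), as for Sesn2 above, a fall of 2-fold lay inside the interval. Atf4 had a log2 fold change of -0.22 ± 0.17 (SE, limma adjusted p = 0.598), with GCN2 KO Cold library C at the WT Cold level and libraries A and B below it.

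The rest of the pathway was read from lists of known genes. In the core of the stress response, WT Cold against WT RT gave 3 rises and 2 falls among 8 genes, where 13.6% of all genes rose and 14.1% fell. Besides Atf4, the rises were in Ppp1r15a (GADD34, log2 fold change 0.95 ± 0.19 SE, limma adjusted p = 0.00901) and Ppp1r15b (0.29 ± 0.07 SE), subunits of the eIF2 phosphatases. The falls were in the kinase genes Eif2ak2 (PKR, -1.60 ± 0.15 SE) and Eif2ak4 (-0.59 ± 0.16 SE). Against WT RT, GCN2 KO Cold showed rises in Atf4 and Ppp1r15a (0.61 ± 0.18 SE) and a fall in Eif2ak2 (-1.68 ± 0.17 SE), where 16.4% of all genes rose and 17.8% fell. The Ppp1r15a rise there (limma adjusted p = 0.034) did not pass in 7 of 14 alternatives: without GCN2 KO Cold A or C or WT RT A or C (limma adjusted p up to 0.0966), without the trend, on the CPM scale (0.41, limma adjusted p = 0.151) and with all groups in the fit. In WT Cold against WT RT, Eif2ak4 did not pass in 5 of 14, without the trend, WT Cold A or B, or WT RT B or C (limma adjusted p up to 0.0972). Ppp1r15b did not pass in 5 of 14 either, without the trend, on the CPM scale, with all groups in the fit (0.21, limma adjusted p = 0.136), or without WT Cold A or WT RT B.

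Of 38 other ATF4 targets tested, 16 rose, 5 fell and 17 did not pass in WT Cold against WT RT, with a median log2 fold change of 0.47, where 13.6% of all genes rose and 14.1% fell. Counts are given by role, and differences between roles were not tested. In amino acid synthesis 4 of 10 genes fell and 1 (Mthfd2) rose with limma, and 4 fell and 3 (Mthfd2, Cth and Gpt2) rose with DESeq2. Psph, the last step of serine synthesis, fell by 1.16 ± 0.12 on the log2 scale (SE, limma adjusted p = 0.000636). In amino acid transport 3 of 7 rose and none fell: Slc3a2, the heavy chain of heteromeric transporters (1.60 ± 0.18 SE), Slc38a2, a neutral amino acid carrier (1.12 ± 0.08 SE), and Slc7a1, the arginine and lysine carrier (0.99 ± 0.16 SE). Slc7a5, the leucine transporter LAT1, did not overlap between the groups (0.83 ± 0.27 SE, limma adjusted p = 0.0535) and passed with DESeq2 (adjusted p = 0.021). In tRNA charging and export 8 of 11 rose, none by more than 0.64 on the log2 scale.

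Among secreted factors and other targets, 4 of 10 rose and 1 fell, beside the same 13.6% and 14.1% of all genes. Gdf15 was at 6.70, 5.98 and 4.55 CPM in WT Cold and 2.10, 5.01 and 1.77 CPM in WT RT (log2 fold change 1.17 ± 0.36 SE, limma adjusted p = 0.0461). In CPM, WT RT library B lay above WT Cold library C. Gdf15 did not pass with edgeR (adjusted p = 0.0727), without the mean-variance trend, on the CPM scale, or without WT Cold A or B or WT RT A or C (0.91 to 1.13, limma adjusted p up to 0.135). Jdp2, a leucine zipper repressor, rose by 1.04 ± 0.10 (SE). Fgf21 did not pass (1.66 ± 0.74 SE, limma adjusted p = 0.131), but did with DESeq2 (adjusted p = 0.00411), and WT Cold library C carried most of its reads.

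In GCN2 KO Cold against WT RT, 13 of the 38 targets rose and 8 fell, with a median log2 fold change of 0.11, where 16.4% of all genes rose and 17.8% fell. Synthesis genes fell in 6 of 10, among them Phgdh, the first step of serine synthesis (-1.72 ± 0.25 SE, limma adjusted p = 0.00166), and Psat1, the second (-1.22 ± 0.23 SE, limma adjusted p = 0.00461). Transport genes rose in 2 of 7, and tRNA charging and export genes in 7 of 11. Slc3a2 (1.34 ± 0.17 SE) and Slc38a2 (0.73 ± 0.10 SE) rose, and Slc7a1 did not pass (0.35 ± 0.16 SE).

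None of the 38 passed with limma in GCN2 KO Cold against WT Cold, where 0.405% of all genes did. Their median log2 fold change was -0.20, and 32 of the 38 estimates were negative. An unadjusted limma p under 0.05 was found in 11 of the 38, against 15.3% of all genes. The groups did not overlap for 10, all lower in GCN2 KO Cold, against 22.0% of all genes in either direction. Slc7a5 was at 2.31, 3.13 and 2.33 CPM in GCN2 KO Cold and 6.98, 4.94 and 6.53 CPM in WT Cold, without overlap. Its log2 fold change was -1.12 ± 0.21 (SE, limma adjusted p = 0.0896, DESeq2 adjusted p = 0.0017). Slc7a1, with -0.64 ± 0.15 (SE, limma adjusted p = 0.128), passed with DESeq2 as well (adjusted p = 0.0311). So did Mthfd2, a mitochondrial folate enzyme, which rose in WT Cold against WT RT (0.86 ± 0.26 SE) and whose groups overlapped here (-0.88 ± 0.27 SE, limma adjusted p = 0.199, DESeq2 adjusted p = 0.0447). These were the 3 of 38 that passed with DESeq2, against 3.22% of all genes.

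**Figure D4:**
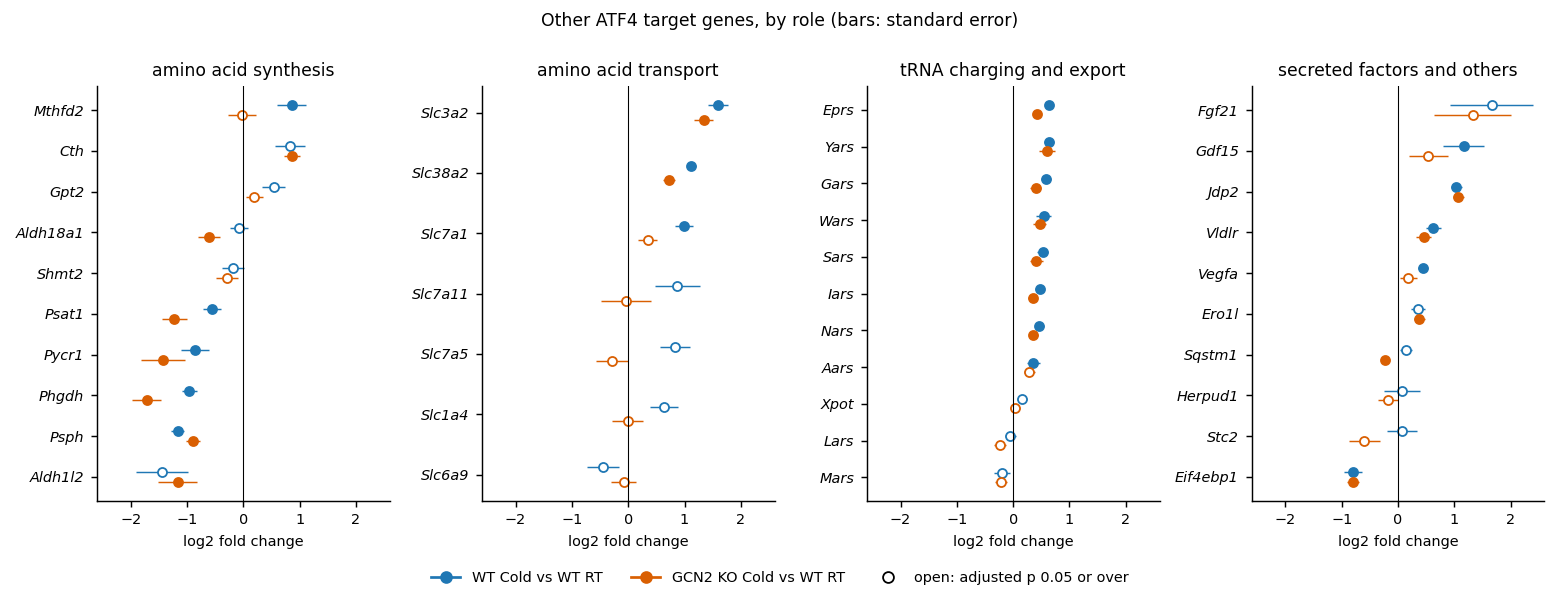
Log2 fold changes (horizontal axis) with standard errors of 38 other ATF4 target genes, in 4 panels by role, for WT Cold vs WT RT (blue) and GCN2 KO Cold vs WT RT (orange), which share the WT RT libraries. Filled points have a limma adjusted p under 0.05. Serine and proline synthesis genes lie left of 0, and all transporters but Slc6a9 and most tRNA charging genes right of 0 in WT Cold vs WT RT.

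Close relatives of the members were read in the same way. Ddit4l, the paralog of Ddit4, was at 3.05 ± 0.604 CPM in WT Cold, 1.32 ± 0.119 CPM in GCN2 KO Cold and 8.85 ± 0.771 CPM in WT RT (SD, n = 3). Against WT RT it fell by 1.46 ± 0.17 in libraries labelled WT Cold and by 2.52 ± 0.18 in those labelled GCN2 KO Cold (log2, SE, limma adjusted p = 0.00124 and 0.000103), where Ddit4 rose. Trib1, a relative of Trib3, rose by 0.80 ± 0.16 in WT Cold (SE, limma adjusted p = 0.00941). Of the C/EBP genes, Cebpd rose by 1.20 ± 0.15 and Cebpa fell by 0.98 ± 0.13 in WT Cold (log2, SE). Over all 12 relatives, 6 rose and 3 fell in WT Cold against WT RT, where 13.6% of all genes rose and 14.1% fell. The lists overlap, so their counts are not independent. Atf4 is also in the core list, Jdp2 among the other ATF4 targets, and the C/EBP relatives among the leucine zipper partners below. None of the 12 passed with limma in GCN2 KO Cold against WT Cold, and 1, Ddit4l, passed with DESeq2 there (-1.06 ± 0.22 SE, limma adjusted p = 0.106, DESeq2 adjusted p = 0.0275), with separate groups, where 0.405% of all genes passed with limma and 3.22% with DESeq2.

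Among 12 leucine zipper partners that can pair with these factors, 7 rose and 3 fell in WT Cold against WT RT, beside the same 13.6% and 14.1% of all genes. Of 14 targets of ATF6 and XBP1, the other branches of the unfolded protein response, 3 rose and 4 fell, with a median log2 fold change of -0.21. The chaperone genes Dnajb9 (0.82 ± 0.12 SE) and Manf (0.70 ± 0.08 SE) rose and Pdia4 (-0.74 ± 0.15 SE) fell. Counts of rises (3 of the 14) and falls (4) were equal in GCN2 KO Cold against WT RT, where 16.4% of all genes rose and 17.8% fell. None of the 12 partners or the 14 targets passed with limma in GCN2 KO Cold against WT Cold. With DESeq2 1 of them did, Jun, a partner in the AP-1 family, at a log2 fold change of -0.48 ± 0.09 (SE, limma adjusted p = 0.096, DESeq2 adjusted p = 0.00764), with separate groups in normalized counts, and 1 of 26 is near the 3.22% of all genes that passed with DESeq2.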

How the data were processed

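Total RNA of brown adipose tissue was made into libraries with the NEBNext Ultra II RNA kit after oligo(dT) enrichment, which does not mark strand. According to the methods and the submitters' processing notes, the authors trimmed reads with Trimmomatic 0.36, aligned them with STAR 2.5.2b, counted unique exon reads with featureCounts (Subread 1.5.2) on a GRCm39 genome and tested groups with DESeq2. The 3 deposited tables hold, per gene and library, a signal, the read count that the authors scaled by a size factor belonging to that table. Further deposited columns with log2 fold changes and p-values of the authors' own tests were not used. Columns carry library codes tied to groups but to no mouse, and 0 columns were of other samples.

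Every value was a whole multiple of 1 read (100% of values within 0.001 of a whole read), so reads were recovered. CPM are these reads over their total on the 16006 genes shared by the tables. Each table was fitted whole with limma 3.58.1 (R 4.3.3) on log2(normalized count + 1), with a mean-variance trend, 3 against 3 libraries and Benjamini-Hochberg adjustment. Fold changes on this scale understate the change of low genes. P-values set the difference between groups against the spread between biological replicates, moderated toward that of genes at like levels. Alternatives were DESeq2 1.42.0 and edgeR 4.0.16 on the recovered reads, pseudocounts of 0.5 and 5, a mean of at least 50 normalized counts, no trend, CPM scaling, all 3 groups in 1 fit, and fits that left out 1 library at a time. Scripts were tested on simulated data. Recovered reads on the listed genes ran from 27055469 to 30766437 per library, and counting error was not separated from the spread between mice.

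The members and lists were chosen with earlier results of these data known. All 10 members were named, along with Eif2ak4, Atf4, Fgf21, Slc7a5, Ppp1r15a, Trib1 and, of each list, at most the 6 genes that passed with the largest log2 fold change in a comparison. Xist, Ddx3y, Fabp4, Plin1, Herpud1, Jun, Mthfd2, Cth and Gpt2 were added with their values already seen. Positions and exon lengths are from GENCODE M21 (GRCm38), in which 15973 of 16006 identifiers were found, and promoter sequences are from RefSeq.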

Additional observations from a re-analysis of the deposited data

How the results depend on the processing

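No paired analysis was possible because the columns carry library codes and not the replicate numbers of the labels. Over all genes, leaving out 1 library gave from 2907 to 5679 passing genes in WT Cold vs WT RT, against 4624, and from 3 to 24 in GCN2 KO Cold vs WT Cold, against 66. There DESeq2 gave 526, limma without the mean-variance trend 6, all 3 groups in 1 fit 419, and leaving out library C of both cold groups, a choice made after seeing the data, 168. No member passed in GCN2 KO Cold vs WT Cold with any alternative run. In WT Cold vs WT RT, where 5 members passed, 1 (Sesn2) did without the trend, 3 with CPM scaling, 3 with all groups in the fit, and from 2 to 4 with 1 library left out. In GCN2 KO Cold vs WT RT, again from 5, the counts were 2 without the trend, 3 with CPM scaling, 2 with all groups, and from 2 to 5 with 1 library left out. Fits that left out a library also held fewer libraries, and the causes of these changes were not tested.

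Directions turned only for differences that had not passed, all on the log2 scale. Chac1 in WT Cold vs WT RT was 0.43 with DESeq2 and 0.43 with edgeR, and ran from -0.95 to 0.33 with 1 library left out. In GCN2 KO Cold vs WT Cold, the ranges with 1 library left out were -0.21 to 0.16 for Atf5, -0.0205 to 0.34 for Ddit3, -0.11 to 0.051 for Nupr1, -0.72 to 0.24 for Trib3, -0.70 to 0.086 for Ddit4 and -1.19 to 0.61 for Fgf21. Without library C of both cold groups, Atf5 was -0.33, Ddit3 -0.01, Trib3 0.0072 and Ddit4 0.12. Atf5 was -0.10 with CPM scaling and -0.10 with all groups in the fit. In GCN2 KO Cold vs WT RT, CPM scaling and all groups in the fit gave -0.0197 and -0.02 for Cebpg, -0.079 and -0.079 for Atf3, -0.086 and -0.086 for Nupr1, -0.011 and -0.0115 for Eif2ak4, and -0.065 and -0.065 for Ppp1r15b. Atf3 ran from -0.11 to 0.41 there with 1 library left out. The pseudocounts, the filter on low values, DESeq2 and edgeR changed no member's call. How far counting depth limits the lowest genes was not tested.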
